A study of Mus musculus with 9 samples.

Results

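Interferon-stimulated genes are switched on in many cell types when interferon binds its receptor, and their products restrict viruses, sense foreign nucleic acid and present antigen. Here they were followed across 3 groups of sorted mouse myeloid progenitors, 1 healthy and 2 leukaemic. The set consisted of 40 genes, listed with earlier results of these data known and found on the array by exact gene symbol. Of these, 38 had a probe set that carried only their symbol, out of 18194 such genes, and 35 were bright enough to be tested, out of 12866. Isg15, a ubiquitin-like modifier, was on a probe set shared with another symbol and Ifi44 had no probe set of its own symbol, so neither was analysed here. Ifit1, Usp18 and Mx2 were measured and described but too dim to be tested.

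The study asked how leukaemia with mutated C/EBPα compares with leukaemia driven by Sox4. Wild type cells came from C57/BL6 mice without leukaemia. Sox4 leukaemic cells came from leukaemic mice that overexpress the transcription factor Sox4, and K/L leukaemic cells came from leukaemic mice with mutations in both alleles of Cebpa, the gene of C/EBPα. All 3 groups are labelled with the C57/BL6 strain, blood as tissue and an age of 2 to 4 months, and each had 3 arrays (n = 3). All were sorted as the fraction called FrII, lineage-negative, Sca-1-negative and c-Kit-positive with low or positive Mac1. The descriptions of the leukaemic samples add a gate for CD45.2-positive, CD45.1-negative cells. The wild type descriptions do not, although the extraction text of every sample names it, so whether the wild type cells passed that gate is not settled. The sources used here do not give how or in which cells Sox4 was overexpressed, nor whether hosts received transplanted cells. Each description numbers a single mouse but each title says mice, so n counts arrays and p-values measure the spread between arrays.

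Type I interferons signal through the receptor chains IFNAR1 and IFNAR2 and the kinases JAK1 and TYK2. These phosphorylate STAT2, which acts with IRF9 in a complex that binds the interferon-stimulated response element (ISRE) near target genes. Interferon gamma uses IFNGR1, IFNGR2, JAK1 and JAK2, and genes that respond to it often carry the gamma-activated site (GAS). Blood progenitors are known to respond to both kinds of interferon, and several of these genes also have a basal level that does not need interferon.

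Values are the deposited intensities on the log2 scale, where a difference of 1 is a 2-fold change. A change is called here when limma's Benjamini-Hochberg adjusted p, taken over all 12866 genes, was under 0.05. Array medians lay between 43.07 and 46.79 on the linear scale. Arrays of a group correlated at r of at least 0.992, apart from wild type array 3, which correlated at 0.977 and 0.979 with the other wild type arrays. Kit, the gene of the c-Kit gate, was high in all groups, with wild type, Sox4 and K/L means of 9.17, 9.18 and 9.22. Itgam, which encodes Mac1, was too dim to be tested, with means of 4.91, 4.2 and 3.83. Gapdh control probes, read as 3′ over 5′ signal to gauge RNA integrity, gave a ratio of 2.68 to 2.91 on wild type, 2.22 to 2.44 on Sox4 and 1.93 to 2 on K/L arrays. That ratio therefore moved with the groups. The same ratio of actin control probes overlapped, at 0.885 to 0.976 on wild type, 0.881 to 0.915 on Sox4 and 0.866 to 0.913 on K/L arrays. The part of RNA integrity in the differences was not tested.

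The start regions of the genes show what the members share in sequence. RefSeq promoters of assembly GRCm38.p6 (250 bases before the start to 50 after it) were found for 31 of the 40 genes. The ISRE core, here 2 copies of GAAA with any 2 bases between them, read on both strands, stood in 12 of these 31 (38.7%) against 3.99% of 27025 genes. A longer form, which is the core followed by CT, stood in 6 of 31 (19.4%) against 0.303%. The GAS motif, TTC and GAA with any 3 bases between them, stood in 8 of 31 (25.8%) against 9.55%. These are matches of letters in a short window and not measured binding. Below, capitals mark every match to the ISRE core or to GAS.

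The neighbours Ifit1 and Ifit2 are shown first because Ifit2 fell in K/L cells. They lie on chromosome 19 in the same RefSeq order as Ifit3, with Ifit2 next to Ifit3 and 3 genes between Ifit3 and Ifit1. The promoter of Ifit1 (chr19:34640639-34640938, plus strand) holds 2 ISRE cores, at bases -104 to -95 and -85 to -76 from the start. The promoter of Ifit2 (chr19:34550444-34550743, plus strand) holds no ISRE core and 1 GAS match, at -241 to -233. RefSeq lists 2 promoters for Ifit2. The printed promoter was picked for its motif matches, ISRE cores first, and by start position only in a tie.
Ifit1: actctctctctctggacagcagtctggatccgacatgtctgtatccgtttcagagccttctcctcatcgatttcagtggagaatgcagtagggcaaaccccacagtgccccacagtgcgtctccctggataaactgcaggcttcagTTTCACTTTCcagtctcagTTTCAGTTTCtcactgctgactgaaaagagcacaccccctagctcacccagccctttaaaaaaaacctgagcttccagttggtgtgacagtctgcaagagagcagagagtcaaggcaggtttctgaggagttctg
Ifit2: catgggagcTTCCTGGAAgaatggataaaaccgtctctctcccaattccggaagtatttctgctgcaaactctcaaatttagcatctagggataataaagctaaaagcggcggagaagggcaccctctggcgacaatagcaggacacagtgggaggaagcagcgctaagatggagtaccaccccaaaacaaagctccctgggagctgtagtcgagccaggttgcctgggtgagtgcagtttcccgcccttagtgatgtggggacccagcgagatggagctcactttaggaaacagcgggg

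Gbp2 and Gbp3 lie on chromosome 3 with 1 gene between them and are shown because their values differed in K/L cells. They were chosen for printing after their values were seen, as was Oas1a, which has several matches close to its start. Gbp2 (chr3:142620413-142620712, plus strand) holds 1 ISRE core at -59 to -50. Gbp3 (chr3:142559794-142560093, plus strand, picked from 2 listed by motif matches as for Ifit2) holds 2 that overlap, at -45 to -36 and -39 to -30. Oas1a (chr5:120907476-120907775, minus strand) also holds 2 that overlap, at -20 to -11 and -14 to -5, and 1 GAS match at -98 to -90.
Gbp2: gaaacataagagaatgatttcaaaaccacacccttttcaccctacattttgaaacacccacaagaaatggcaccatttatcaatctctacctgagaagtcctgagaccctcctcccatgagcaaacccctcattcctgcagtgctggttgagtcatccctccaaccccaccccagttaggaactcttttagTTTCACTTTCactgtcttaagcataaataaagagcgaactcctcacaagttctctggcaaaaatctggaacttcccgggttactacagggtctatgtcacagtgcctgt
Gbp3: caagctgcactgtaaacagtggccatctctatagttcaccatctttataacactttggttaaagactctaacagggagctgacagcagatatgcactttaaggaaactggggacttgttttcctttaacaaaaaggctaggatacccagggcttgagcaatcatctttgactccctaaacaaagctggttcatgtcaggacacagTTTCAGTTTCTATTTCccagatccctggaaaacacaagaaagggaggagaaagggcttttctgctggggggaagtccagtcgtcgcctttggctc
Oas1a: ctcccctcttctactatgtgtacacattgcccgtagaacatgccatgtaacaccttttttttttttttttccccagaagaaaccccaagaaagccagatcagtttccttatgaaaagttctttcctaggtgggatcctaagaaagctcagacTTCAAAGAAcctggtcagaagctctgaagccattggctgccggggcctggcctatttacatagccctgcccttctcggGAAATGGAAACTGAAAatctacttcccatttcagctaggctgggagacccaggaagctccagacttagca

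Neither motif was found in the window of Irf7 (chr7:141266375-141266674, minus strand), of Dtx3l (chr16:35938978-35939277, minus strand) or of Lgals3bp (chr11:118401910-118402209, minus strand). Lgals3bp is printed as the member with the largest rise. Dtx3l stands for the Parp9 and Dtx3l region, and Irf7 for the transcription factors. A window without these letters says nothing about binding farther away.
Irf7: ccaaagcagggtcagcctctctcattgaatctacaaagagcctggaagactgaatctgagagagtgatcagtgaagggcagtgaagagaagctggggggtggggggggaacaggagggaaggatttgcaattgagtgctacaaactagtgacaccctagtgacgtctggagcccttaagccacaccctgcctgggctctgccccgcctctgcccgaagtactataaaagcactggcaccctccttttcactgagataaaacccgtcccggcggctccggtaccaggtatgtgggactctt
Dtx3l: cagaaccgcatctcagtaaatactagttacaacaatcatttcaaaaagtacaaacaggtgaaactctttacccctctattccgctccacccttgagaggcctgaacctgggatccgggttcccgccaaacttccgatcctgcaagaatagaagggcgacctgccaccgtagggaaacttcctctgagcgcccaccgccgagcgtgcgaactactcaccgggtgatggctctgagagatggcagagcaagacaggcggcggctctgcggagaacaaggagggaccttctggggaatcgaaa
Lgals3bp: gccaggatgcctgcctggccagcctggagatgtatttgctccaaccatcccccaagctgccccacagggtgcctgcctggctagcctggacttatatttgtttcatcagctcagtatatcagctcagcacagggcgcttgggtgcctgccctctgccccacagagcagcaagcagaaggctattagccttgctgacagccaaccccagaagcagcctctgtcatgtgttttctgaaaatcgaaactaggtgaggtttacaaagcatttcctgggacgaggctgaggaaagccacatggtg

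The 10 tested members with an ISRE core had a median difference from wild type of 0.95 in Sox4 and 0.72 in K/L cells. The 18 tested members whose window lacked it had medians of 0.61 and 0.72. No difference between these lists was tested.

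Most of the genes were higher in both leukaemias than in wild type progenitors. In Sox4 cells 27 of 35 rose and 2 fell, where 26.6% of all tested genes rose and 21.1% fell (47.7% either way). Of those 27, 16 rose at least 2-fold, against 9.19% of all genes, and 0 fell 2-fold, against 6.3%. In K/L cells 20 of 35 rose and 1 fell, against 28.7% and 21.6% of all genes (50.3% either way). At least 2-fold changes were 10 rises and 1 fall, against 9.33% and 7.27%. All 3 arrays lay above all wild type arrays for 28 genes in the Sox4 group and for 23 in the K/L group, where 31% and 32.8% of all genes did so. They lay below for 2 and 1, where 25.1% and 25.2% did so. The median difference of the 35 genes was 0.87 in Sox4 and 0.62 in K/L cells, while that of all genes was 0.03 and 0.05. Sox4 and K/L cells were compared with the same wild type arrays, so these counts are not independent of each other. The genes were chosen with earlier results of these data known, so the counts describe the list and are no unbiased comparison with all genes. The filter on dim genes let Mx1 through on the Sox4 arrays alone, and Oas3, Oasl1 and Oasl2 on leukaemic arrays alone, so these 4 had to differ in some group. In bulk samples, fewer cells of a type and less RNA per cell cannot be told apart.

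**Figure D1:**
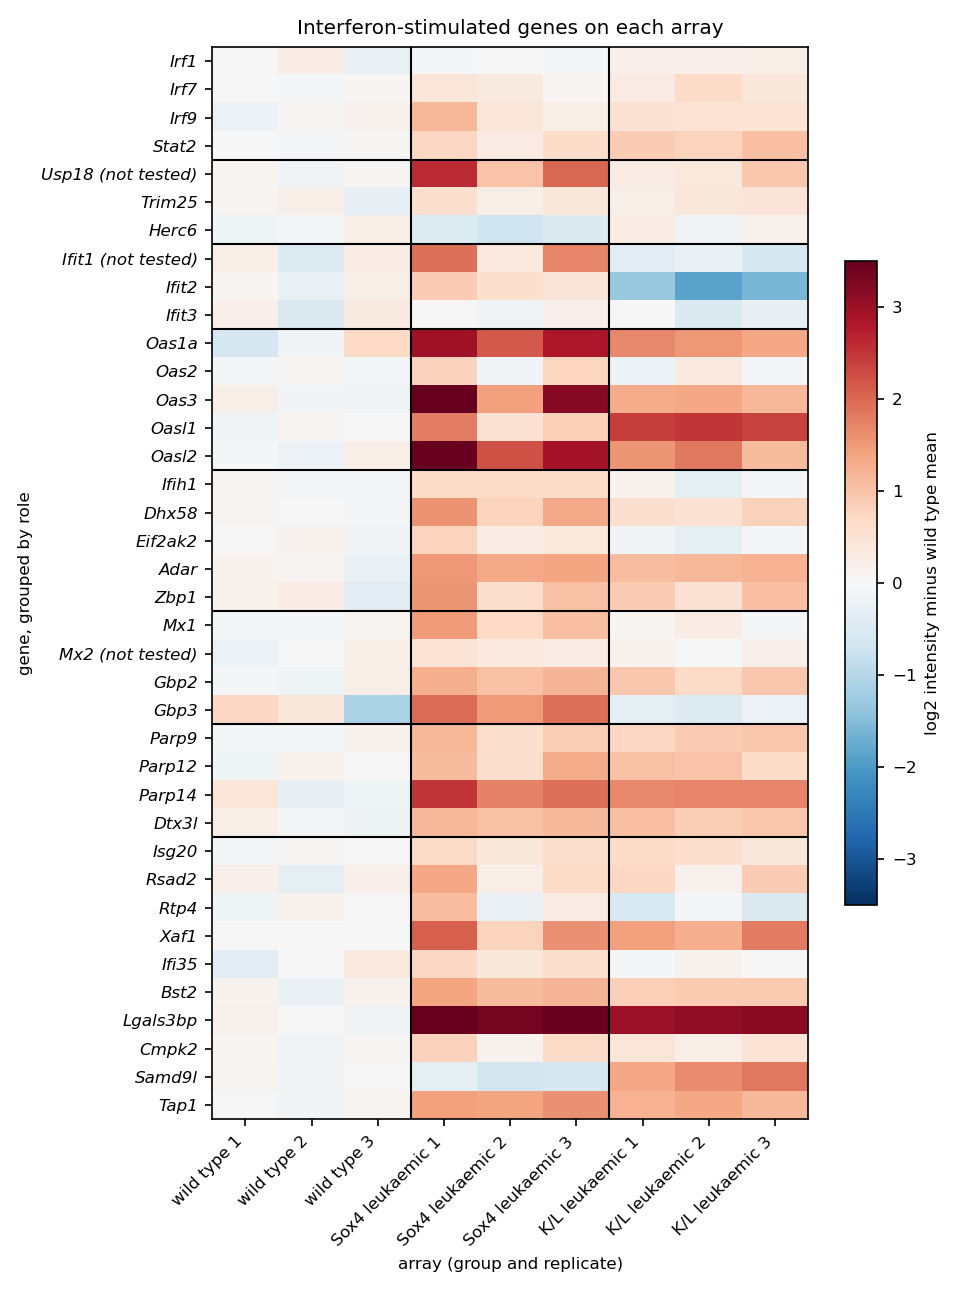
Log2 intensity of the 38 measured interferon-stimulated genes on each array (columns, 3 per group), as the difference from the wild type mean (colour, log2, red higher and blue lower), with genes in rows ordered by role. Most rows are red in both leukaemias, Ifit2 is blue in K/L cells, Samd9l is red in K/L and blue in Sox4 cells, and Sox4 array 2 is paler than Sox4 array 1.

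Among the 35 genes, 18 rose in both leukaemias, against 18.5% of all tested genes, and 0 fell in both, against 14.2%. They were Stat2, Isg20, Oas1a, Oas3, Oasl1, Oasl2, Xaf1, Dhx58, Bst2, Parp9, Parp12, Parp14, Dtx3l, Adar, Zbp1, Lgals3bp, Gbp2 and Tap1. Ifit2 and Samd9l were called in opposite directions in the 2 leukaemias, against 2.18% of all genes. Irf1, Ifit3, Oas2, Rsad2 and Rtp4 were called in neither. Without wild type array 3, 25 rose and 2 fell in Sox4 cells, against 27.1% and 22.1% of all genes, and 18 rose and 2 fell in K/L cells, against 28.9% and 22.6%.

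Among the transcription factors of the response, Stat2 was the clearest riser. It encodes a subunit of the ISRE-binding complex, and it measured 5.74, 5.71 and 5.8 on the wild type arrays. On Sox4 arrays it measured 6.47, 6.05 and 6.4, and on K/L arrays 6.63, 6.54 and 6.81. The groups did not overlap. Stat2 was 0.91 ± 0.13 (SE) higher in K/L cells (adjusted p = 0.000255) and 0.55 ± 0.13 higher in Sox4 cells (adjusted p = 0.00524). Its other probe set gave the same calls, at 0.78 and 0.49.

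Irf9, the DNA-binding part of that complex, measured 6.58, 6.83 and 6.94 on wild type arrays, 7.94, 7.2 and 6.98 on Sox4 arrays and 7.29, 7.27 and 7.26 on K/L arrays. Each leukaemic array was above each wild type array, and Sox4 array 1 was far above the rest. Irf9 was 0.59 ± 0.21 higher in Sox4 cells (adjusted p = 0.0438), which ranged from 0.0147 to 0.133 when single arrays were left out, and was 0.31 (adjusted p = 0.0962) without Sox4 array 1. In K/L cells the difference of 0.49 missed the threshold (adjusted p = 0.0818), and passed it without Sox4 array 1 (adjusted p = 0.00868).

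Irf7, an amplifier of interferon production, measured 5.19, 5.18 and 5.28 on wild type arrays, 5.64, 5.54 and 5.28 on Sox4 arrays and 5.5, 5.89 and 5.62 on K/L arrays. It was 0.45 ± 0.13 higher in K/L cells (adjusted p = 0.0154), and 0.34 (adjusted p = 0.0602) without K/L array 2. The difference of 0.27 in Sox4 cells did not pass (adjusted p = 0.118), and neither did the difference between the leukaemias (0.18, adjusted p = 0.336). Irf1, which responds most to interferon gamma, had means of 8.74, 8.7 and 8.94 and overlapping wild type values. It passed in none of the 3 comparisons with all arrays, and in K/L against wild type only without wild type array 2 (0.33, adjusted p = 0.0377).

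In the oligoadenylate synthetase family Oas1a, Oas3, Oasl1 and Oasl2 rose in each leukaemia, and Oas2 did not pass. These enzymes make 2′-5′ linked oligoadenylates when they meet double-stranded RNA, and the OAS-like proteins are relatives, some of which have lost that activity. The wild type means of Oas3, Oasl1 and Oasl2 lay in the dimmest 40% of their arrays, and these genes entered the test through leukaemic arrays, so the sizes of their rises have no firm baseline and their count is no support for a family-wide change.

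Oasl2 measured 4.11, 3.94 and 4.38 on wild type arrays, 8.02, 6.37 and 7.06 on Sox4 arrays and 5.7, 5.99 and 5.24 on K/L arrays. The 3 groups were fully separate, with Sox4 highest. It was 3.01 ± 0.36 higher in Sox4 cells (adjusted p = 9.48e-05), and 1.5 ± 0.36 higher in K/L cells (adjusted p = 0.00615).

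Oas1a measured 5.79, 6.29 and 7.09 on wild type arrays, 9.37, 8.54 and 9.21 on Sox4 arrays and 8.06, 7.9 and 7.74 on K/L arrays. Again the groups did not overlap. The differences from wild type were 2.65 ± 0.31 in Sox4 (adjusted p = 8.6e-05) and 1.51 ± 0.31 for K/L cells (adjusted p = 0.00269).

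Oas3 measured 4.42, 4.13 and 4.11 on wild type arrays, 7.87, 5.65 and 7.41 on Sox4 arrays and 5.53, 5.56 and 5.38 on K/L arrays. Sox4 array 2 lay just above the K/L arrays, far below the other Sox4 arrays. Oas3 was 2.76 ± 0.45 higher in Sox4 cells (adjusted p = 0.000696) and 1.27 ± 0.45 higher in K/L cells (adjusted p = 0.0383). The K/L call was lost when any wild type or K/L array was left out, with adjusted p from 0.0622 to 0.0895, although the groups did not overlap.

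Oasl1 had the other order. It measured 4.07, 4.29 and 4.19 on wild type arrays, 5.97, 4.69 and 5.03 on Sox4 arrays and 6.59, 6.68 and 6.54 on K/L arrays, so K/L cells were highest with no overlap. The rise was 2.42 ± 0.26 in K/L cells (adjusted p = 5.11e-05), and 1.05 ± 0.26 in Sox4 cells (adjusted p = 0.00842). Oas2 measured 5.12, 5.27 and 5.12 on wild type arrays, 5.99, 5.05 and 5.92 on Sox4 arrays and 4.96, 5.52 and 5.11 on K/L arrays. Its difference of 0.48 in Sox4 cells did not pass (adjusted p = 0.121) and was 0.79 (adjusted p = 0.00489) without Sox4 array 2.

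**Figure D2:**
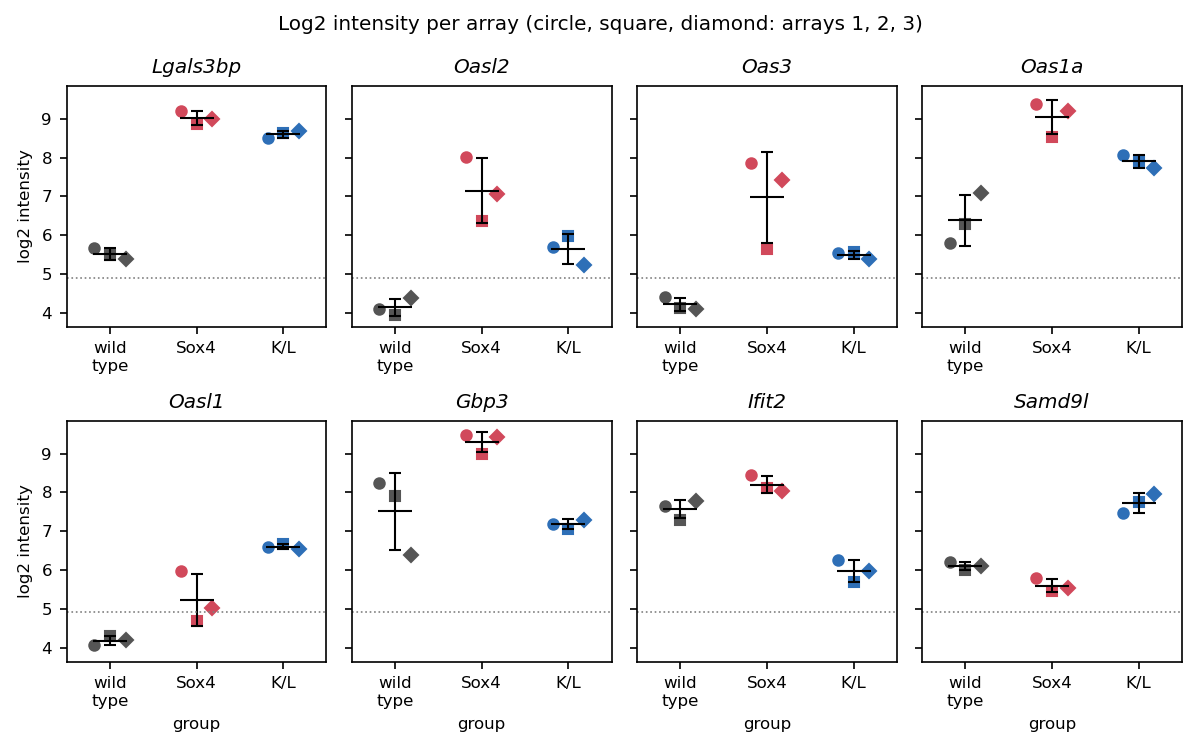
Log2 intensity (vertical axis) of 8 genes on each array by group, with array 1 as a circle, array 2 as a square and array 3 as a diamond, the bar at the group mean and whiskers of 1 SD (n = 3), and a dotted line at the mean 40th percentile of the arrays. Lgals3bp and the Oas genes are higher in both leukaemias, Oasl1 and Samd9l are highest in K/L cells, and Ifit2 is lowest there.

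The IFIT genes, which encode RNA-binding proteins that block translation of foreign RNA, went different ways. Ifit2 measured 7.64, 7.3 and 7.77 on wild type arrays, 8.45, 8.12 and 8.03 on Sox4 arrays and 6.25, 5.69 and 5.98 on K/L arrays. The groups were fully separate, with K/L lowest. Ifit2 fell by 1.6 ± 0.18 in K/L cells, 3.02-fold (adjusted p = 6.11e-05), and was the only member that fell there. In Sox4 cells it was 0.63 ± 0.18 higher (adjusted p = 0.0156). That rise was 0.5 without wild type array 2 (adjusted p = 0.0554) or without Sox4 array 1 (adjusted p = 0.0629).

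Ifit3, its direct neighbour, measured 6.4, 5.72 and 6.55 on wild type arrays, 6.23, 6.11 and 6.4 on Sox4 arrays and 6.25, 5.72 and 5.93 on K/L arrays. All 3 groups overlapped and no comparison passed. Only without wild type array 2 was Ifit3 called, lower in K/L cells by -0.51 (adjusted p = 0.0315). Ifit1 was too dim to test, and its values were 4.54, 3.88 and 4.58 on wild type arrays, 6.26, 4.67 and 6.04 on Sox4 arrays and 3.96, 4.1 and 3.78 on K/L arrays, so only Sox4 arrays 1 and 3 stood out.

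All 5 genes for sensors and editors of double-stranded or Z-form nucleic acid rose in Sox4 cells, and 3 rose in K/L cells. Of all tested genes 26.6% and 28.7% did so. Dhx58, which encodes the regulatory helicase LGP2, measured 5.57, 5.46 and 5.43 on wild type arrays, 7.07, 6.26 and 6.82 on Sox4 arrays and 6.04, 6 and 6.29 on K/L arrays. Every leukaemic array was above every wild type array. It was 1.23 ± 0.18 higher in Sox4 cells (adjusted p = 0.000425) and 0.62 ± 0.18 higher in the K/L group (adjusted p = 0.0179), and the K/L value was 0.53 (adjusted p = 0.0668) without K/L array 3. A second tested probe set gave 0.74 in K/L cells (adjusted p = 0.0139), while a mean over all its probe sets, including another too dim to test, was 0.28 (adjusted p = 0.157).

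Ifih1, the gene of the RNA sensor MDA5, rose in Sox4 cells alone. It measured 7.19, 7.02 and 7.05 on wild type arrays, 7.77, 7.77 and 7.72 on Sox4 arrays and 7.22, 6.75 and 7.01 on K/L arrays. The Sox4 values were tight and above all others, and the wild type and K/L values overlapped. The rise was 0.67 ± 0.12 (adjusted p = 0.00137), against -0.09 in K/L cells (adjusted p = 0.576).

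Eif2ak2 encodes PKR, the kinase that stops translation in response to double-stranded RNA. It was 0.46 ± 0.15 higher in Sox4 cells (adjusted p = 0.0253), with group means of 9.6 ± 0.12 for wild type, 10.07 ± 0.27 for Sox4 and 9.45 ± 0.15 for K/L (SD, n = 3). The call was lost without wild type array 1 (0.0588), wild type array 3 (0.0631) or Sox4 array 1 (0.0877), as adjusted p, and of its other probe sets 1 missed it at 0.4 (adjusted p = 0.0764) and 1 passed at 0.64 (adjusted p = 0.00422).

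Adar, the editor of adenosines in double-stranded RNA, had means of 6.49 ± 0.2 for wild type, 7.89 ± 0.1 for Sox4 and 7.64 ± 0.08 for K/L (SD). It was 1.4 ± 0.12 higher in Sox4 (adjusted p = 1.09e-05) and 1.15 ± 0.12 higher in K/L cells (adjusted p = 3.62e-05). A second probe set of Adar rose in Sox4 cells by 0.78 (adjusted p = 0.00624) but gave 0.18 in K/L cells (adjusted p = 0.442), so the K/L rise rests on 1 probe set. Zbp1, a sensor of Z-form nucleic acid, was 1.07 ± 0.25 higher in Sox4 (adjusted p = 0.00572) and 0.81 ± 0.25 higher in K/L cells (adjusted p = 0.0213). Its other probe set showed no difference beyond 0.08 in either, and its K/L call was lost without wild type array 3, K/L array 1 or K/L array 3, with adjusted p from 0.0594 to 0.0767.

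The Mx and GBP genes encode large GTPases that act against viruses and intracellular microbes. All 3 that could be tested rose in Sox4 cells, and only Gbp2 rose in K/L cells, where 26.6% and 28.7% of all tested genes rose. Mx1 passed the filter on dim genes through its Sox4 arrays alone. The filter thus favoured this outcome for Mx1, and its call adds no support to the count. Mx1 measured 4.47, 4.48 and 4.61 on wild type arrays, 6.02, 5.22 and 5.58 on Sox4 arrays and 4.6, 4.77 and 4.48 on K/L arrays. Wild type and K/L values overlapped in the dimmest 40% of the arrays, and the Sox4 values were above them. The rise was 1.09 ± 0.18 (adjusted p = 0.000738). Mx2 was dim on all 9 arrays, with means of 4.44, 4.8 and 4.55.

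Gbp3 measured 8.24, 7.9 and 6.39 on wild type arrays, 9.47, 9 and 9.43 on Sox4 arrays and 7.18, 7.05 and 7.3 on K/L arrays. Sox4 values were above all others, and wild type array 3 was far below the other wild type arrays. Gbp3 was 1.79 ± 0.39 higher in Sox4 cells (adjusted p = 0.00396). In K/L cells the difference was -0.33 (adjusted p = 0.512) with all arrays and -0.89 (adjusted p = 0.00202) without wild type array 3. Gbp2 measured 5.47, 5.39 and 5.74 on wild type arrays, 6.81, 6.56 and 6.71 on Sox4 arrays and 6.47, 6.2 and 6.49 on K/L arrays. Both leukaemias were above wild type on every array, by 1.16 ± 0.13 in Sox4 (adjusted p = 6.25e-05) and 0.85 ± 0.13 for K/L cells (adjusted p = 0.000422).

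The genes of ADP-ribosylation rose together, with 4 of 4 higher in each leukaemia and 0 of 4 called between the leukaemias. Of all tested genes 26.6% rose in Sox4 and 28.7% in K/L cells, and 28.8% were called between the leukaemias. PARP9 and DTX3L form a ubiquitin ligase complex, and Parp14, Dtx3l and Parp9 lie side by side on chromosome 16. Parp14 measured 6, 5.3 and 5.43 on wild type arrays, 8.07, 7.3 and 7.5 on Sox4 arrays and 7.27, 7.28 and 7.28 on K/L arrays. It was 2.05 ± 0.22 higher in Sox4 (adjusted p = 4.64e-05) and 1.7 ± 0.22 higher in K/L cells (adjusted p = 0.000146). Its second probe set gave 0.73 (adjusted p = 0.031) and 0.57 (adjusted p = 0.0729).

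Dtx3l measured 8.36, 8.06 and 7.94 on wild type arrays, 9.29, 9.15 and 9.26 on Sox4 arrays and 9.17, 8.97 and 9.1 on K/L arrays. It was 1.11 ± 0.12 and 0.96 ± 0.12 higher (adjusted p = 5.3e-05 and 0.000127), and its second probe set gave 1.19 and 1.09. Parp9 was 0.87 ± 0.14 and 0.85 ± 0.14 higher (adjusted p = 0.000792 and 0.000861). Parp12 was 0.99 ± 0.19 and 0.89 ± 0.19 higher (adjusted p = 0.00177 and 0.00323), each value given for Sox4 and then for K/L cells. Between the leukaemias the differences of these 4 genes lay from -0.35 for Parp14 to -0.02 for Parp9, with standard errors of 0.12 to 0.22, so a difference of that size could not be resolved.

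In the group around ISG15 conjugation, Usp18 encodes the enzyme that removes ISG15 and restrains receptor signalling. It was too dim to test and measured 3.86, 3.66 and 3.81 on wild type arrays, 6.4, 4.78 and 5.78 on Sox4 arrays and 4.07, 4.15 and 4.71 on K/L arrays. Sox4 array 1 was highest and Sox4 array 2 lay close to the highest K/L array. Herc6, the ISG15 ligase of mice, measured 7.31, 7.39 and 7.7 on wild type arrays, 7, 6.76 and 6.96 on Sox4 arrays and 7.72, 7.37 and 7.6 on K/L arrays. It fell by 0.56 ± 0.14 in Sox4 cells (adjusted p = 0.00718), with no overlap, and gave 0.09 in K/L cells (adjusted p = 0.604). Of its 3 other probe sets, 2 fell too, and the third gave -0.52 (adjusted p = 0.0507).

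Trim25, a ubiquitin ligase that acts on the RNA sensor RIG-I, was 0.39 ± 0.15 higher in Sox4 cells (adjusted p = 0.0494), with means of 11.59, 11.99 and 11.95. That call was lost in 7 of 9 fits with 1 array left out, with adjusted p up to 0.163, and the value was 0.25 without wild type array 3. Its 2 other probe sets rose in both leukaemias, by 0.75 and 1.04 in Sox4 and by 0.75 and 0.87 in K/L cells.

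Lgals3bp was the strongest riser of all 35 genes in both leukaemias. It encodes a secreted glycoprotein that binds galectins. It measured 5.67, 5.49 and 5.38 on wild type arrays, 9.21, 8.86 and 8.98 on Sox4 arrays and 8.5, 8.63 and 8.68 on K/L arrays. The gap to wild type was far larger than the spread in any group. Lgals3bp was 3.51 ± 0.12 higher in Sox4 cells, 11.4-fold (adjusted p = 4.28e-08), and 3.09 ± 0.12 higher in K/L cells, 8.5-fold (adjusted p = 5.82e-08).

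Xaf1, a gene linked to cell death, measured 6.62, 6.59 and 6.59 on wild type arrays, 8.69, 7.39 and 8.21 on Sox4 arrays and 8.03, 7.87 and 8.41 on K/L arrays. The leukaemias overlapped each other and not wild type, with rises of 1.5 ± 0.28 (adjusted p = 0.00152) and 1.51 ± 0.28 (adjusted p = 0.0014). Tap1, a subunit of the peptide transporter for MHC class I, had means of 7.88 ± 0.1, 9.35 ± 0.11 and 9.12 ± 0.11. It was 1.47 ± 0.1 higher in Sox4 (adjusted p = 3.63e-06) and 1.24 ± 0.1 higher in K/L cells (adjusted p = 9.48e-06). A much dimmer probe set of Tap1 gave 0.01 and 0.26, with adjusted p of 0.946 and 0.0331.

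Bst2, the tetherin that holds virions at the cell surface, measured 7.25, 6.89 and 7.24 on wild type arrays, 8.51, 8.23 and 8.31 on Sox4 arrays and 7.96, 8.05 and 8.04 on K/L arrays. All leukaemic arrays were above all wild type arrays. The rises were 1.22 ± 0.12 (adjusted p = 3.33e-05) and 0.89 ± 0.12 (adjusted p = 0.000241). Isg20, an exonuclease, rose by 0.55 ± 0.11 and 0.54 ± 0.11 (adjusted p = 0.00245 and 0.00251).

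Samd9l, a growth-restraining gene that is mutated in inherited marrow failure, measured 6.2, 6.01 and 6.11 on wild type arrays, 5.8, 5.47 and 5.53 on Sox4 arrays and 7.47, 7.75 and 7.96 on K/L arrays. The 3 groups were fully separate. It was 1.61 ± 0.14 higher in K/L cells (adjusted p = 1.21e-05) and 0.51 ± 0.14 lower in Sox4 cells, a difference of -0.51 (adjusted p = 0.0136) that was -0.45 (adjusted p = 0.0538) without Sox4 array 2.

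Of the other effectors, Ifi35 and Cmpk2 rose in Sox4 cells. Ifi35 was 0.56 ± 0.17 higher (adjusted p = 0.0196), which was lost without wild type array 1 (0.0578), Sox4 array 1 (0.0725) or Sox4 array 3 (0.0553), as adjusted p. Cmpk2, a mitochondrial nucleotide kinase that lies beside Rsad2 on chromosome 12, was 0.52 ± 0.17 higher (adjusted p = 0.0275). Without wild type array 2, Sox4 array 1 or Sox4 array 3 its adjusted p was 0.0803, 0.104 and 0.0939. A second probe set of Cmpk2 gave 0.21 in Sox4 cells (adjusted p = 0.313), so the Sox4 rise rests on 1 probe set. In K/L cells Cmpk2 gave 0.38 (adjusted p = 0.0863), which passed with arrays centred on their medians (0.47, adjusted p = 0.0377) or without Sox4 array 2 (0.38, adjusted p = 0.0207). Set against Sox4 cells directly, K/L cells gave -0.14 for Cmpk2, which did not pass (adjusted p = 0.592).

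Rsad2 encodes viperin, which makes a chain-terminating nucleotide. It measured 6.47, 5.96 and 6.48 on wild type arrays, 7.65, 6.53 and 6.98 on Sox4 arrays and 7.03, 6.45 and 7.2 on K/L arrays, and neither difference passed (0.75, adjusted p = 0.0578, and 0.59, adjusted p = 0.12). A dimmer probe set of the same gene passed in both, at 1.07 (adjusted p = 0.0121) and 0.98 (adjusted p = 0.0177), so the call for Rsad2 depends on the probe set. Without Sox4 array 2 the Sox4 difference was 1.01 (adjusted p = 0.0189). Rtp4, a receptor chaperone, gave 0.36 in Sox4 and -0.36 in K/L cells, both with an adjusted p of 0.335.

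Compared directly, K/L cells had lower levels than Sox4 cells for 11 of the 35 genes and higher levels for 3, where 14.1% and 14.7% of all tested genes were lower and higher (28.8% either way). At least 2-fold, 5 were lower and 2 higher, against 5.45% and 3.65%. The K/L arrays lay below all Sox4 arrays for 15 genes and above them for 5, where 24% and 27.1% of all genes did so. The 11 were Ifit2, Oas1a, Oas3, Oasl2, Mx1, Ifih1, Dhx58, Ifi35, Eif2ak2, Lgals3bp and Gbp3, and the 3 were Oasl1, Samd9l and Herc6. The remaining 21 did not pass. Mx1 had entered the test through its Sox4 arrays alone. The filter thus favoured a lower level of Mx1 in K/L cells, and its call adds no support to the count. The median difference of the 35 was -0.26, against 0.03 for all genes. With each array centred on its median, 8 were lower and 4 higher, the median of all genes was 0.11, and 11.4% and 19.7% of all genes were lower and higher.

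Ifit2 had the largest difference, -2.23 ± 0.18 (4.68-fold, adjusted p = 1.14e-05), followed by Gbp3 at -2.12 ± 0.39 (adjusted p = 0.00269). Both were lower on each K/L array than on each Sox4 array. Samd9l was 2.12 ± 0.14 higher in K/L cells (adjusted p = 2.75e-06), and Oasl1 was 1.37 ± 0.26 higher (adjusted p = 0.00348). Herc6 was 0.66 ± 0.14 higher (adjusted p = 0.00553), and its 3 other probe sets gave 0.83 to 0.92. Thus the OAS family split, with Oasl1 higher and Oasl2 (-1.51 ± 0.36, adjusted p = 0.011), Oas3 (-1.49 ± 0.45, adjusted p = 0.0326) and Oas1a (-1.14 ± 0.31, adjusted p = 0.0208) lower in K/L cells. Mx1, whose call the filter favoured, was lower by -0.99 ± 0.18 (adjusted p = 0.00243) and Ifih1 by -0.76 ± 0.12 (adjusted p = 0.00119).

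**Figure D3:**
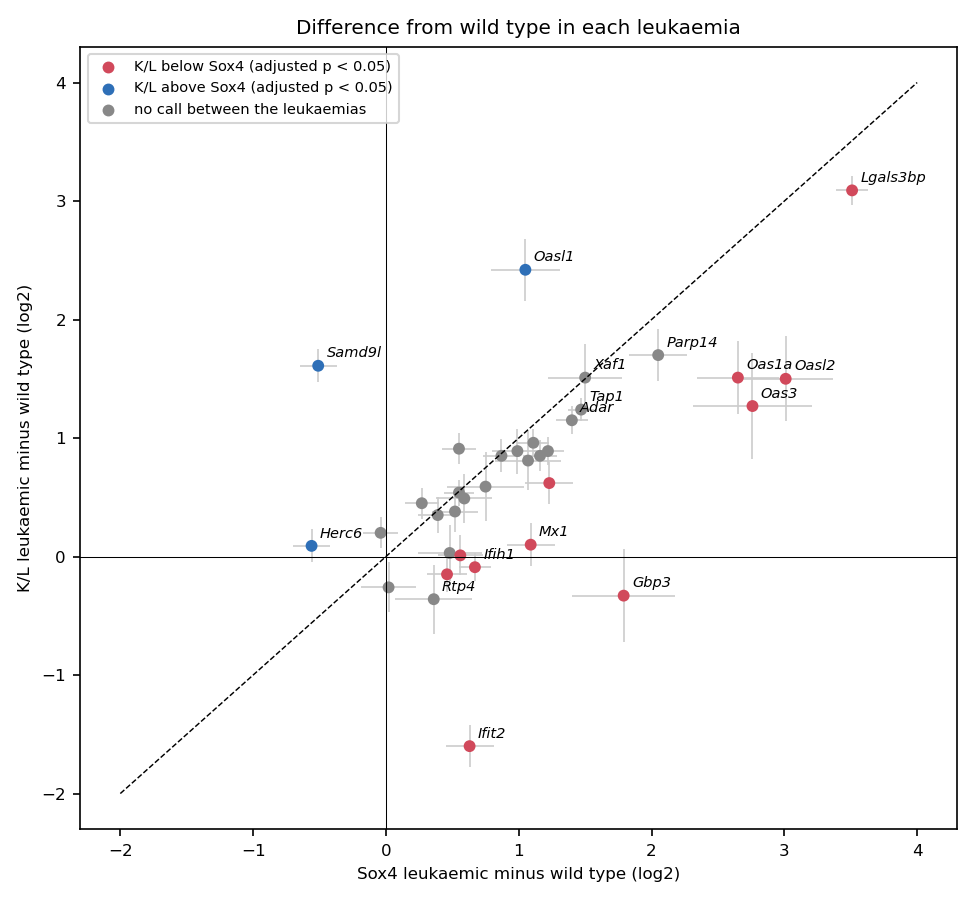
Difference from wild type (log2, ± SE) of the 35 tested genes in Sox4 cells (horizontal axis) and K/L cells (vertical axis), which share the wild type arrays, with a dashed line of equal differences and colours for the call between the leukaemias. Lgals3bp is farthest from wild type in both, Ifit2 lies below 0 in K/L cells alone, and Samd9l and Oasl1 lie above the dashed line.

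Part of this comparison rested on single arrays. Without Sox4 array 1, Sox4 array 3 or K/L array 2, 6 genes were lower in K/L cells, and without K/L array 1, 7, while the 3 higher genes held in every such fit. The share of all genes that was lower fell too, from 14.1% to 10.6%, 10.9%, 11.3% and 11% in these fits. Without Sox4 array 2, 13 were lower, against 11.2% of all genes. The calls of Oas1a, Oas3, Dhx58, Ifi35 and Lgals3bp were among those lost. Without Sox4 array 1 their differences were -0.97, -1.04, -0.43, -0.48 and -0.32, with adjusted p of 0.0792, 0.107, 0.119, 0.115 and 0.102.

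The Sox4 arrays differed from one another in a shared way across these genes. Array 1 was the highest Sox4 array for 31 of the 35 genes (88.6%, against 34.6% of all tested genes). Array 2 was the lowest for 30 (85.7%, against 33.4%). Array 1 was above array 2 for 34 of 35, with Irf1 as the exception, against 49.8% of all genes. The median gap between them was 0.47, where the median of all genes was 0. The median SD of a member was 0.26 on Sox4 arrays, 0.14 on K/L arrays and 0.18 on wild type arrays, where that of all genes was 0.11, 0.11 and 0.19. Among the K/L arrays no such order was seen, since each was highest for 9 to 16 genes.

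The gap between Sox4 arrays 1 and 2 was 2.22 for Oas3, 1.65 for Oasl2, 1.35 for Rtp4, 1.31 for Xaf1, 1.28 for Oasl1 and 1.13 for Rsad2. These 6 of 35 (17.1%) exceeded 1, as did 30 of all tested genes (0.233%). Lgals3bp, Gbp2, Tap1, Adar and Ifih1, which also rose in Sox4 cells, had gaps of only 0.35, 0.25, 0.07, 0.2 and 0.01. Members thus differed in whether they varied among Sox4 arrays. The interferon receptors did not share the order, with a median gap of -0.04 over 5 genes and 1 of 5 higher on array 1. Of 10 other antigen presentation genes 9 were higher on array 1, with a median gap of 0.12.

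**Figure D4:**
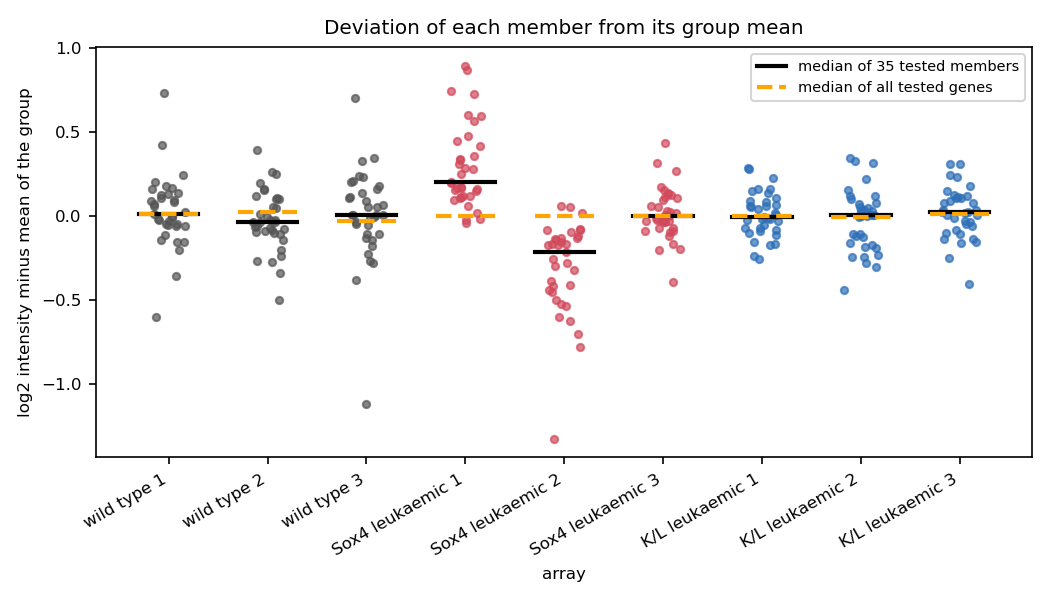
Deviation of each of the 35 tested genes from its group mean (vertical axis, log2) on each array (horizontal axis), with a black bar at their median and a dashed orange bar at the median of all 12866 tested genes. The genes lie mostly above 0 on Sox4 array 1 (median 0.2) and below 0 on Sox4 array 2 (median -0.21), while the all-gene medians stay near 0.

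The Sox4 arrays also differed in sex-linked genes. Xist, the RNA that silences an X chromosome in females, measured 12.1, 4.68 and 11.63 on Sox4 arrays 1, 2 and 3, and 4.6 to 5.34 on all wild type and K/L arrays. Kdm5d, on the Y chromosome, measured 4.14, 9.91 and 9.01 on the Sox4 arrays and 9.6 to 10.86 on the others. Sox4 array 3 thus had signal of both, and whether it holds 1 mouse is not settled. Averaged over the 35 genes, the level was 7.88, 7.27 and 7.59 on Sox4 arrays 1, 2 and 3, 7.23 to 7.27 on K/L and 6.53 to 6.59 on wild type arrays. Sox4 array 2, the only Sox4 array without Xist signal, had the lowest average of its group, equal to the highest K/L array.

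With the 2 Sox4 arrays that had Xist signal left out, an alternative chosen after seeing the data, a fit of the other 7 arrays called 16 genes higher and 1 lower in Sox4 cells than in wild type, where 14.9% and 12% of all genes were. Between the leukaemias it called 2 genes lower in K/L cells (Ifit2 and Ifih1) and 4 higher (Stat2, Oasl1, Samd9l and Herc6), against 6.23% and 5.54% of all genes, with a median of -0.06. In that fit Sox4 cells are 1 array, assumed to vary like the other groups, which lowers the number of calls for all genes too. The differences of Ifit2 and Samd9l stayed at -2.14 (adjusted p = 0.00171) and 2.25 (adjusted p = 0.000423). Those of Oasl2, Oas3 and Oas1a shrank to -0.72, -0.16 and -0.64, with adjusted p of 0.174, 0.655 and 0.421. Against wild type, Sox4 array 2 alone remained higher for Lgals3bp (3.35, adjusted p = 3.27e-05), Oas1a (2.14, adjusted p = 0.00928), Oasl2 (2.23, adjusted p = 0.00167) and Tap1 (1.37, adjusted p = 0.001). The part of sex, or of mixed animals, in the spread among Sox4 arrays was not tested.

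The rest of the pathway was looked at through lists of receptors, signalling genes, sensors and presentation genes. No interferon gene was called in any of the 3 comparisons. Of 13 listed, 8 had a probe set and 2 (Ifna1 and Ifna5, from closely related genes that probes may not tell apart) were bright enough to test. Ifnb1, the gene of interferon beta, was dim with means of 4.35, 4.64 and 4.55, and Ifng with 3.59, 3.7 and 3.96.

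The receptor genes moved by chain. Ifnar2, a chain of the type I receptor, measured 10.54, 10.43 and 10.18 on wild type arrays, 10.75, 10.64 and 10.61 on Sox4 arrays and 11.31, 11.45 and 11.4 on K/L arrays. It was 1 ± 0.11 higher in K/L cells (adjusted p = 5.97e-05), against 0.28 in Sox4 cells (adjusted p = 0.0604), and the leukaemias differed by 0.72 ± 0.11 (adjusted p = 0.001). Ifnar1 was 0.43 ± 0.1 higher in K/L cells (adjusted p = 0.00573) and gave 0.09 in Sox4 cells (adjusted p = 0.479).

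Both chains of the interferon gamma receptor fell in both leukaemias. Ifngr1 changed by -0.7 ± 0.1 in Sox4 (adjusted p = 0.000327) and -0.54 ± 0.1 for K/L cells (adjusted p = 0.00151). Ifngr2 changed by -0.75 ± 0.11 (adjusted p = 0.000468) and -1.03 ± 0.11 (adjusted p = 5.96e-05). Il10rb, a chain shared by the interferon lambda and interleukin 10 receptors, rose by 1.19 ± 0.09 and 0.91 ± 0.09 (adjusted p = 4.66e-06 and 2.39e-05). Ifnlr1, the specific lambda chain, was too dim to test.

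Of 11 tested signalling genes, 5 rose and 2 fell in K/L cells and 2 rose and 2 fell in Sox4 cells, where 28.7% and 21.6%, and 26.6% and 21.1%, of all genes did so. Tyk2, the kinase bound to IFNAR1, measured 6.86, 7.12 and 6.75 on wild type arrays, 8.39, 8.31 and 8.54 on Sox4 arrays and 8.06, 8.14 and 8.16 on K/L arrays. It rose by 1.5 ± 0.11 and 1.21 ± 0.11 (adjusted p = 5.63e-06 and 2.09e-05). Ptpn6, which encodes the phosphatase SHP-1 that dampens JAK signalling, was 1.24 ± 0.08 higher in K/L cells (adjusted p = 1.47e-06) and gave -0.17 in Sox4 cells (adjusted p = 0.1). Uba7, the activating enzyme of ISG15, was 0.78 ± 0.13 higher in K/L cells (adjusted p = 0.000788) and gave 0.24 in Sox4 cells (adjusted p = 0.158).

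Irf8, a factor of monocyte and dendritic cell fate that also binds composite interferon elements, had the largest rise of the other IRF genes in Sox4 cells. It measured 7.38, 7.33 and 5.54 on wild type arrays, 10.69, 10.8 and 10.86 on Sox4 arrays and 8.02, 8.14 and 8.54 on K/L arrays. The groups did not overlap, and wild type array 3 was again far below the other wild type arrays. Irf8 rose by 4.03 ± 0.41 in Sox4 cells (adjusted p = 3.63e-05) and 1.49 ± 0.41 for K/L cells (adjusted p = 0.013). Irf5 was 0.46 ± 0.13 higher in K/L cells (adjusted p = 0.0117), with a difference of 0 in Sox4 cells (adjusted p = 0.982). Of the 6 tested genes of this list, 5 rose in K/L and 4 in Sox4 cells, where 28.7% and 26.6% of all tested genes rose.

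Of 19 tested genes that sense nucleic acid upstream of interferon, 5 rose and 4 fell in K/L cells, while 6 rose and 4 fell in Sox4 cells. These counts lie near the shares of all genes, 28.7% and 21.6% in K/L and 26.6% and 21.1% in Sox4 cells, and are no result about the list. Mavs, the mitochondrial adaptor of RNA sensors, rose by 2.91 ± 0.22 in Sox4 and 2.84 ± 0.22 for K/L cells (adjusted p = 5.77e-06 and 6.18e-06), from a wild type mean of 3.83 that was dim. It entered the test through leukaemic arrays alone, so the filter favoured these rises. Myd88, the adaptor of most Toll-like receptors, rose by 1.01 ± 0.1 and 1.07 ± 0.1 (adjusted p = 3.38e-05 and 2.11e-05). Sting1, which relays the DNA sensor cGAS, rose in K/L cells by 0.8 ± 0.1 (adjusted p = 0.000119) and gave 0.1 in Sox4 cells (adjusted p = 0.431).

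Tank, a scaffold of the kinases TBK1 and IKKε, changed by -1.63 ± 0.13 in K/L and -1.12 ± 0.13 in Sox4 cells (adjusted p = 5.88e-06 and 6.99e-05). Ikbke, the gene of IKKε, changed by -1.69 ± 0.17 in K/L cells (adjusted p = 2.62e-05) and gave -0.42 in Sox4 cells (adjusted p = 0.0594).

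Of 10 genes for antigen presentation under interferon control, 9 rose in Sox4 and 7 in K/L cells, and none fell. Of all tested genes 26.6% rose and 21.1% fell in Sox4 cells, and 28.7% rose and 21.6% fell in K/L cells. Psmb9, an immunoproteasome subunit, rose by 1.45 ± 0.11 and 1.41 ± 0.11 (adjusted p = 6.09e-06 and 6.71e-06). Psmb8, another subunit, rose by 0.96 ± 0.09 and 0.79 ± 0.09 (adjusted p = 2.5e-05 and 8.05e-05). Nlrc5, the activator of MHC class I genes, measured 5.71, 5.26 and 7.35 on wild type arrays, 8.06, 7.46 and 7.65 on Sox4 arrays and 4.67, 5.61 and 5.07 on K/L arrays. Wild type array 3 stood far above the other wild type arrays. It rose by 1.62 ± 0.47 in Sox4 cells (adjusted p = 0.0165) and differed by -2.61 ± 0.47 between K/L and Sox4 cells (adjusted p = 0.00228).

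**Figure D5:**
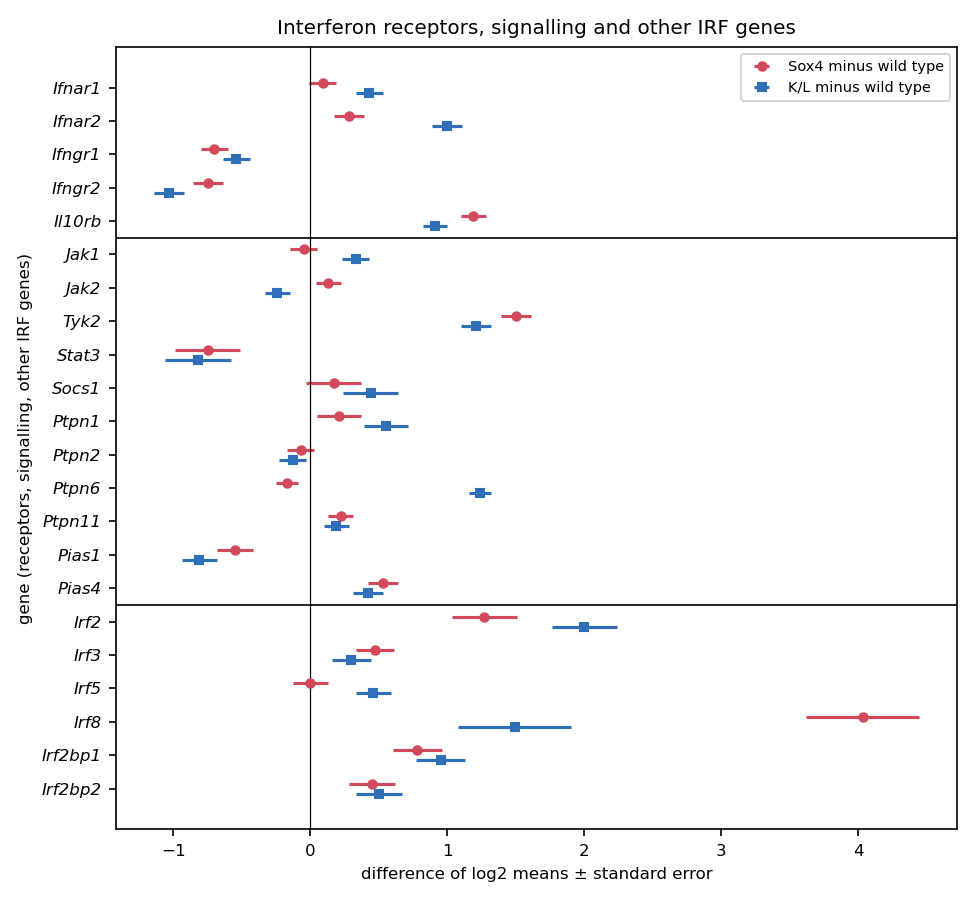
Difference from wild type (horizontal axis, log2 ± SE) of the tested interferon receptor, signalling and other IRF genes (vertical axis) in Sox4 cells (circles) and K/L cells (squares). Ifngr1 and Ifngr2 are below 0 in both, Ifnar2 is higher in K/L cells, and Irf8 lies at 4.03 in Sox4 and 1.49 in K/L cells.

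Markers of several other blood cells moved with the groups too. Each count of called markers below stands against 26.6% higher and 21.1% lower of all tested genes in Sox4 cells. In K/L cells these shares were 28.7% and 21.6%. Counts near the shares are no result about a list. Summed on the linear scale over 9 measured monocyte and macrophage markers, the signal was 1500 to 1560 in wild type, 4700 to 5200 in Sox4 and 2280 to 2680 in K/L cells, and of 6 tested markers 5 rose in Sox4 cells and Adgre1 fell (-3.22, adjusted p = 1.01e-07). In K/L cells 2 rose, Mpeg1 and Cd68, and Adgre1 fell (-0.41, adjusted p = 0.0265). The sum of 9 plasmacytoid dendritic cell markers, a type known for high interferon output, was 967 to 1070, 1650 to 1740 and 774 to 818. Of these Siglech, a defining marker, had means of 5.82, 5.65 and 5.76. Of the 8 tested, 3 rose and 0 fell in Sox4 cells, and 4 rose and 2 fell in K/L cells. Pld4 rose by 4.05 in Sox4 and 2.26 in K/L cells. Tcf4 changed by 0.92 in Sox4 and -3.97 in K/L cells, where its linear mean was 27.2 against 425 in wild type. The sum of conventional dendritic cell markers was 210 to 261, 787 to 890 and 425 to 702, with rises of Flt3, H2-Ab1, H2-Aa and Cd74 in Sox4 cells and of Itgax and H2-Ab1 in K/L cells. The sum of megakaryocyte markers was 341 to 389, 1400 to 2220 and 265 to 287, and that of T and NK cell markers was 240 to 270, 262 to 278 and 275 to 291. The remaining sums, in the same order of groups, were 487 to 605, 642 to 796 and 827 to 857 for B cell markers and 2300 to 2670, 2330 to 2850 and 1390 to 1640 for erythroid markers. Of 6 tested B cell markers 1 rose in Sox4 cells, Cd79b with a linear mean of 389 against 104 in wild type, and 2 fell. In K/L cells 3 of them rose and 1 fell. Most of the erythroid sum was Tfrc, while 4 of 5 tested erythroid markers rose in Sox4 cells, Car1 by 3.83, Aqp1 by 2.68, Ermap by 1.5 and Klf1 by 1.11, and none fell. Car1 and Aqp1 passed the filter on dim genes through Sox4 arrays alone, and Pld4 and H2-Aa through leukaemic arrays alone. The filter thus favoured the rises of these genes, which add no support to the counts. The late neutrophil sum was 15400 to 20900, 4370 to 4640 and 389 to 567. On wild type and Sox4 arrays most of it was S100a8 and S100a9, which changed by -2.19 and -2.62 in Sox4 cells, while 6 of the 10 genes rose there, among them Ltf (2.33), Ngp (1.69), Lcn2 (1.51) and Camp (1.19). In K/L cells 6 of the 10 fell and 0 rose. The sum of sort gate and early granulocyte genes was 44100 to 47600, 48300 to 48900 and 36900 to 38200. Of the 8 tested, 1 rose and 2 fell in Sox4 cells, and 1 rose and 3 fell in K/L cells. Elane changed by -4.04 in K/L cells (adjusted p = 8.96e-08), where its linear mean was 450 against 7490 in wild type. None of these markers reached the floor value on any array. Among the Sox4 arrays the megakaryocyte markers ran the other way, with 0 of 6 higher on array 1 than on array 2. The part of these cell types in the levels of the interferon-stimulated genes was not tested.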

How the data were processed

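Total RNA of 5 ug per sample became biotinylated cRNA for Affymetrix mouse arrays, per the labels. The deposited intensity values cover 45101 probe sets and 9 arrays, are linear and stop at a floor of 8. The submitters' processing notes name RMA. Its version, array dates and batches are not given in these sources. Precision is limited by 3 arrays per group.

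Intensities were log2 transformed with the deposited scaling. Gene symbols came from the platform's 2016 annotation (34958 had 1 symbol, and 932 with several and 9211 with none were left out). A gene was its probe set of highest mean over all arrays, and entered the test when 3 or more of the 9 arrays exceeded that array's 40th percentile. Groups were taken from sample titles. A limma 3.58.1 fit (R 4.3.3, lmFit and eBayes, group as the only term) had 6 residual degrees of freedom and 3.64 prior ones. Benjamini-Hochberg adjustment covered 12866 genes at 0.05. A permutation test of 3 against 3 arrays cannot go below p = 0.1, so none is given. The procedure was tested on simulated data.

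The 40 genes and the pathway and marker lists were chosen with earlier results of these data known. Named were all members, every receptor, Irf8 and Irf5, and per comparison up to 6 pathway genes of smallest p, not all of which are printed. Promoters came from RefSeq tables of GRCm38.p6. Alternatives were other probe set choices, filters, scalings, variance models and sample sets, a replicate block, and leaving out each array. Only the fit without the Sox4 arrays with Xist signal was added after seeing the data.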

Additional observations from a re-analysis of the deposited data

Results flagged for a closer look

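Ifit2 and Samd9l moved in opposite directions from wild type in the 2 leukaemias, on every array, and the difference between the leukaemias was itself tested with limma. Ifit2 was lower in K/L than in Sox4 cells (log2 difference -2.23, adjusted p = 1.14e-05, lower on 3 of 3 K/L arrays). Samd9l was higher in K/L cells (2.12, adjusted p = 2.75e-06, higher on 3 of 3 arrays). Over the 19 other settings the adjusted p ranged from 1.1e-06 to 0.000157 for Ifit2 and from 6e-07 to 4.67e-05 for Samd9l.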

How the results depend on the processing

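No called difference of a member changed sign under any alternative run. Of the calls against wild type, 15 of 20 rises and the fall in K/L cells, and 21 of 27 rises and 1 of 2 falls in Sox4 cells, held in all 19 other settings. Between the leukaemias 3 of 3 higher and 6 of 11 lower calls held. With 1 array left out, K/L cells had 18 to 23 called members against wild type (17 to 21 higher, 1 to 2 lower). Of all genes 24.6 to 28.9 percent were higher and 18.8 to 22.6 percent lower in these fits. Sox4 cells had 23 to 29 called members against wild type (21 to 28 higher, 1 to 2 lower). The shares of all genes there were 22.7 to 27.1 percent higher and 17.7 to 22.1 percent lower. K/L against Sox4 gave 9 to 16 (3 to 3 higher, 6 to 13 lower). Here 10.8 to 19.5 percent of all genes were higher and 10.6 to 17.5 percent lower. The second faller in K/L cells was seen without wild type array 2 (Ifit3) or wild type array 3 (Gbp3). Without the 2 Sox4 arrays with Xist signal, a setting chosen after seeing the data, called members fell from 29 to 17 for Sox4 against wild type (16 higher, 1 lower) and from 14 to 6 between the leukaemias (2 lower). That fit has fewer samples, and called 26.9 and 11.8 percent of all genes in these comparisons. Centring arrays on their medians gave 23 rises and 1 fall in K/L cells against wild type, where it moved the median of all genes from 0.05 to 0.15 and the shares higher and lower to 34.4 and 17.8 percent. With the replicate number as a block the counts were 23, 28 and 15 for K/L against wild type, Sox4 against wild type and K/L against Sox4. Same-numbered arrays showed little shared deviation (correlations of -0.02 to 0.08), and 3 of 9 arrays correlated best with their own number in both other groups. With 3 arrays per group these values do not settle whether same-numbered arrays share a batch. Dim probe sets limit Ifit1, Usp18 and Mx2. Adding 16 before log2 took Oas3 in K/L cells from 1.27 to 0.81 (adjusted p = 0.0899).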

Other observations

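Outside the 35 members, 24 other genes were over 1 log2 unit higher on Sox4 array 1 than on Sox4 array 2, and 16 were over 1 higher on array 2. The 24 included Ifi27l2a, known to respond to interferon (6.73, 5.36 and 6.59 on Sox4 arrays 1, 2 and 3) and Slfn5, another such gene (6.31, 5.14 and 5.32). They also included the cholesterol synthesis genes Sqle (9.02, 8 and 8.61), Idi1 (10.65, 9.62 and 10.54), Fdft1 (8.57, 7.42 and 8.18) and Msmo1 (8.2, 7.05 and 7.62). These genes were named after their values were seen, from no list set beforehand, and no share of such genes was computed. Ube2l6, the conjugating enzyme of ISG15, was too dim to test, yet measured 5, 4.02 and 4.97 on the Sox4 arrays against 3.06 to 3.28 on wild type and 3 to 3.18 on K/L arrays.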
